A study of Homo sapiens with 35 samples.

Results

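The accessory stem-cell genes ZFP42, DPPA2, DPPA4, LIN28A, PRDM14, UTF1, FOXD3 and VRTN were followed through the first 3 days of endoderm differentiation of H1, a long-established line of human embryonic stem cells. The 8 genes were taken by name from a list of genes active in the undifferentiated state. All 8 were among the 16103 genes of the bulk RNA-seq table and among the 33539 features of the single-cell libraries. The bulk table held 30 libraries in 15 groups of 2. At 6 h the groups were untreated cells (None), cells given the GSK3 inhibitor CHIR99021 (CHIR), CHIR with Activin A (AA+CHIR), CHIR with the compound labelled BRD (BRD+CHIR), CHIR with the compound labelled JNJ (JNJ+CHIR), and BRD alone. At 24 h the groups were CHIR, AA+CHIR, BRD+CHIR, JNJ+CHIR and BRD alone; the untreated pair labelled for 24 h was not analysed here. At 72 h, after cell sorting, the groups were labelled AA, BRD, JNJ and BRD+LoAA, the last not explained further. In the Activin protocol the cells, on Geltrex, received 100 ng/ml Activin A with 3 µM CHIR99021 on day 1 and Activin A without CHIR on days 2 and 3. BRD and JNJ are code names, their doses were not in the labels, and the sort gates were not given for the bulk libraries. The 3 single-cell libraries, 1 per condition, were cells sorted after 36 h of the Activin protocol, cells sorted after 72 h of it (Endo), and cells sorted after 72 h in STEMdiff Mesoderm Induction medium (Meso).

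Human embryonic stem cells are held in the primed pluripotent state by POU5F1, SOX2 and NANOG, the core transcription factors, and by a wider set of nuclear and RNA-binding proteins that the core factors switch on. Activin A acts through SMAD2 and SMAD3, and CHIR99021 stabilises beta-catenin; given together they carry the cells through a primitive-streak state to definitive endoderm, the layer that later forms gut, liver and pancreas. The accessory genes are widely read as signs that the stem-cell state persists. FOXD3 is a forkhead factor needed by the pluripotent epiblast and used again in the neural crest. PRDM14 is a zinc-finger protein that recruits Polycomb and related repressors and sustains POU5F1 in human stem cells. UTF1 is a chromatin-bound cofactor of undifferentiated cells. DPPA2 and DPPA4 are SAP-domain proteins that bind DNA together at developmental promoters. ZFP42, also called REX1, is a zinc-finger gene descended from YY1 and a classic reporter of pluripotency. LIN28A binds RNA and blocks the maturation of let-7 microRNAs. VRTN encodes vertnin, a DNA-binding protein known for variants that change the number of vertebrae in pigs.

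In the GENCODE annotation of GRCh38, ZFP42 is on the + strand of chromosome 4 at 187995771 to 188005050, with 4 exons. DPPA2, with 9 exons at 109293788 to 109316517, and DPPA4, with 7 exons at 109326141 to 109337572, are neighbours on the - strand of chromosome 3, 9623 bases apart with 0 annotated genes between them. On chromosome 1, LIN28A is at 26410778 to 26429722 with 4 exons, and FOXD3, a gene of 1 exon, is at 63323041 to 63325126, both on the + strand. FOXD3 shares 1401 bases with the antisense gene FOXD3-AS1, and whether the counting used strand is not given in the sources used here. UTF1 has 2 exons at 133230274 to 133231558 on the + strand of chromosome 10, and VRTN has 2 exons at 74303069 to 74360008 on the + strand of chromosome 14. RefSeq promoter windows were found for 6 of the 8 genes, not for LIN28A and PRDM14. The 250 bases before the RefSeq start are given for the genes that fell furthest, FOXD3 and UTF1, and for DPPA4 and VRTN. These last 2 kept more of their RNA over the first day than FOXD3 and UTF1. With AA+CHIR at 24 h DPPA4 kept 36.1%, less than ZFP42 (38.2%) and DPPA2 (45.8%), whose windows are not printed. CG dinucleotides are in capitals and the build is GRCh38.p14.
FOXD3, chr1:63322317-63322566, + strand: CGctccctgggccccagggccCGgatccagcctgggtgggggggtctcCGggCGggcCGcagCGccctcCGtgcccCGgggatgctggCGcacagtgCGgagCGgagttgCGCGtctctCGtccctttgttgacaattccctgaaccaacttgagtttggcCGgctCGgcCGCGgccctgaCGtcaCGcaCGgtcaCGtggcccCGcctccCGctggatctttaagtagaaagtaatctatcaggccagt
UTF1, chr10:133229967-133230216, + strand: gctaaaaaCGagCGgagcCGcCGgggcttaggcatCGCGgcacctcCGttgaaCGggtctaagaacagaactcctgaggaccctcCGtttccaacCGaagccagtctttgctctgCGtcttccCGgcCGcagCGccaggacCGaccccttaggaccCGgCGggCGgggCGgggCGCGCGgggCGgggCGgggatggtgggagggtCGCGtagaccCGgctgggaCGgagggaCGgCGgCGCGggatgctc
DPPA4, chr3:109337547-109337796, - strand: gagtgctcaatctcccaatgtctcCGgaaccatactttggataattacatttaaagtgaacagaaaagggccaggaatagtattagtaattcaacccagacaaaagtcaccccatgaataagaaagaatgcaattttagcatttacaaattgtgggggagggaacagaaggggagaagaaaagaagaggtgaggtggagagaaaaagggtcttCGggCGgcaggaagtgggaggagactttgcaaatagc
VRTN, chr14:74348221-74348470, + strand: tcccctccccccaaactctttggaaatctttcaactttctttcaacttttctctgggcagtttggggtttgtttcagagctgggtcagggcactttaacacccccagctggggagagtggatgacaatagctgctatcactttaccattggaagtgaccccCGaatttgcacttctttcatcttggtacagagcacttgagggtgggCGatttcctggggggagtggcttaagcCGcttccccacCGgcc
The FOXD3 window holds 24 CG dinucleotides and the UTF1 window 32, against 3 in the DPPA4 window and 4 in the VRTN window. Over 35116 RefSeq windows of this length the median was 11. The ZFP42 window holds 23 and the DPPA2 window 7. With AA at 72 h UTF1 kept 0% of the untreated 6 h mean, FOXD3 0.398%, DPPA2 5.33% and ZFP42 5.45%. DPPA4 kept 24.8% and VRTN 44.1%. Whether CG content had a part in the extent of loss was not tested. The VRTN window lies before the RefSeq start and inside the longer GENCODE span of the gene. None of the 6 windows holds, on either strand, the octamer ATTTGCAT, the TCF/LEF letters CTTTGAT or the SOX letters CATTGT, which occur in 1.63%, 2.26% and 9.29% of all windows; this says only that these letters are not in these windows.

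The bulk libraries held 4572385 to 49503832 counts. The number in the library titles (33, 38 or 46) goes with time: all 24 h libraries are from series 38 and all 6 h libraries from series 33, except BRD alone, which at 6 h and 24 h is from series 46 with the 72 h libraries. A difference between times is therefore also a difference between title series, and the effects of the 2 cannot be told apart, other than within series 46. The labels call every bulk sample endoderm derived from stem cells, but at 6 h the summed level of 7 definitive endoderm markers was 4.26 to 46.2 counts per 1000000 counts of the library after TMM scaling (CPM) in all groups. The sum reached 1388 to 1526 CPM with AA+CHIR at 24 h, where CXCR4 was at 0 in both libraries, and 4812 to 5410 CPM with AA at 72 h, where none of the 7 was at 0. In the 8 libraries of series 38 at 24 h, 28 to 168 genes had 0 counts where the other replicate had 50 or more, against 2 to 14 at 6 h, so a low or 0 value at 24 h is less certain. Replicates are not said to be separate cultures, so the p-values measure only the spread between these libraries.

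FOXD3 and PRDM14 were the members that fell within 6 h of CHIR, and VRTN rose slightly. FOXD3 was at 38.1 and 29.4 CPM in the untreated libraries and at 9.99 and 13.7 CPM with CHIR. Both CHIR libraries lay below both untreated ones, and the log2 fold change was -1.51 ± 0.22 (SE; edgeR, adjusted p = 0.00039). PRDM14, a gene of 8 exons on the - strand of chromosome 8 at 70051651 to 70071693, was at 32.9 and 29.2 CPM untreated and at 15.1 and 17.6 CPM with CHIR, again without overlap (log2 -0.92 ± 0.17, adjusted p = 0.00297 by edgeR). VRTN was at 187.5 and 178.1 CPM untreated and at 234.6 and 237.4 CPM with CHIR, a log2 rise of 0.37 ± 0.08 (edgeR, adjusted p = 0.0197). The VRTN call was lost without any 1 of the 4 libraries (adjusted p = 0.0767 to 0.158), and the PRDM14 call without CHIR replicate 1 (adjusted p = 0.0656). So 1 member was called higher and 2 lower of 8, against 2.99% of all 14874 genes tested called in this comparison. The other 5 did not pass: DPPA4 kept 103% of the untreated mean, LIN28A 96.7%, ZFP42 94.8%, DPPA2 110.2% and UTF1 79.8%. In bulk RNA, fewer cells carrying a transcript and less of it per cell cannot be told apart.

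Adding Activin A to CHIR for 6 h moved no member past the threshold, where 1.53% of all genes were called (227 genes, and 65 to 152 without any 1 of the 4 libraries). FOXD3 was at 7.35 and 7.85 CPM with AA+CHIR, below both CHIR libraries (log2 -0.64 ± 0.24, adjusted p = 0.287 by edgeR), and PRDM14 at 11.2 and 12.5 CPM was likewise below both (log2 -0.46 ± 0.18, adjusted p = 0.308). In the same libraries SOX2, a core factor, fell by 1.24 on the log2 scale and NANOG rose by 0.60. BRD+CHIR against CHIR at 6 h called 0 members and 0% of all genes (457 genes had an unadjusted p under 0.05, and DESeq2 called 1 gene). JNJ+CHIR against CHIR called 0 members and 0.0202% of genes, and BRD+CHIR against JNJ+CHIR also called 0 members and 0.0202% of genes. The first 2 of these comparisons, and that of AA+CHIR, share the CHIR libraries. The 95% interval for BRD+CHIR against CHIR ran from -0.18 to 0.17 for ZFP42 and from -0.15 to 0.11 for LIN28A on the log2 scale. The plot of each library as a percentage of the untreated mean shows FOXD3 and PRDM14 low in every CHIR-containing group at 6 h while DPPA4, LIN28A and ZFP42 stay near 100.

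**Figure D1:**
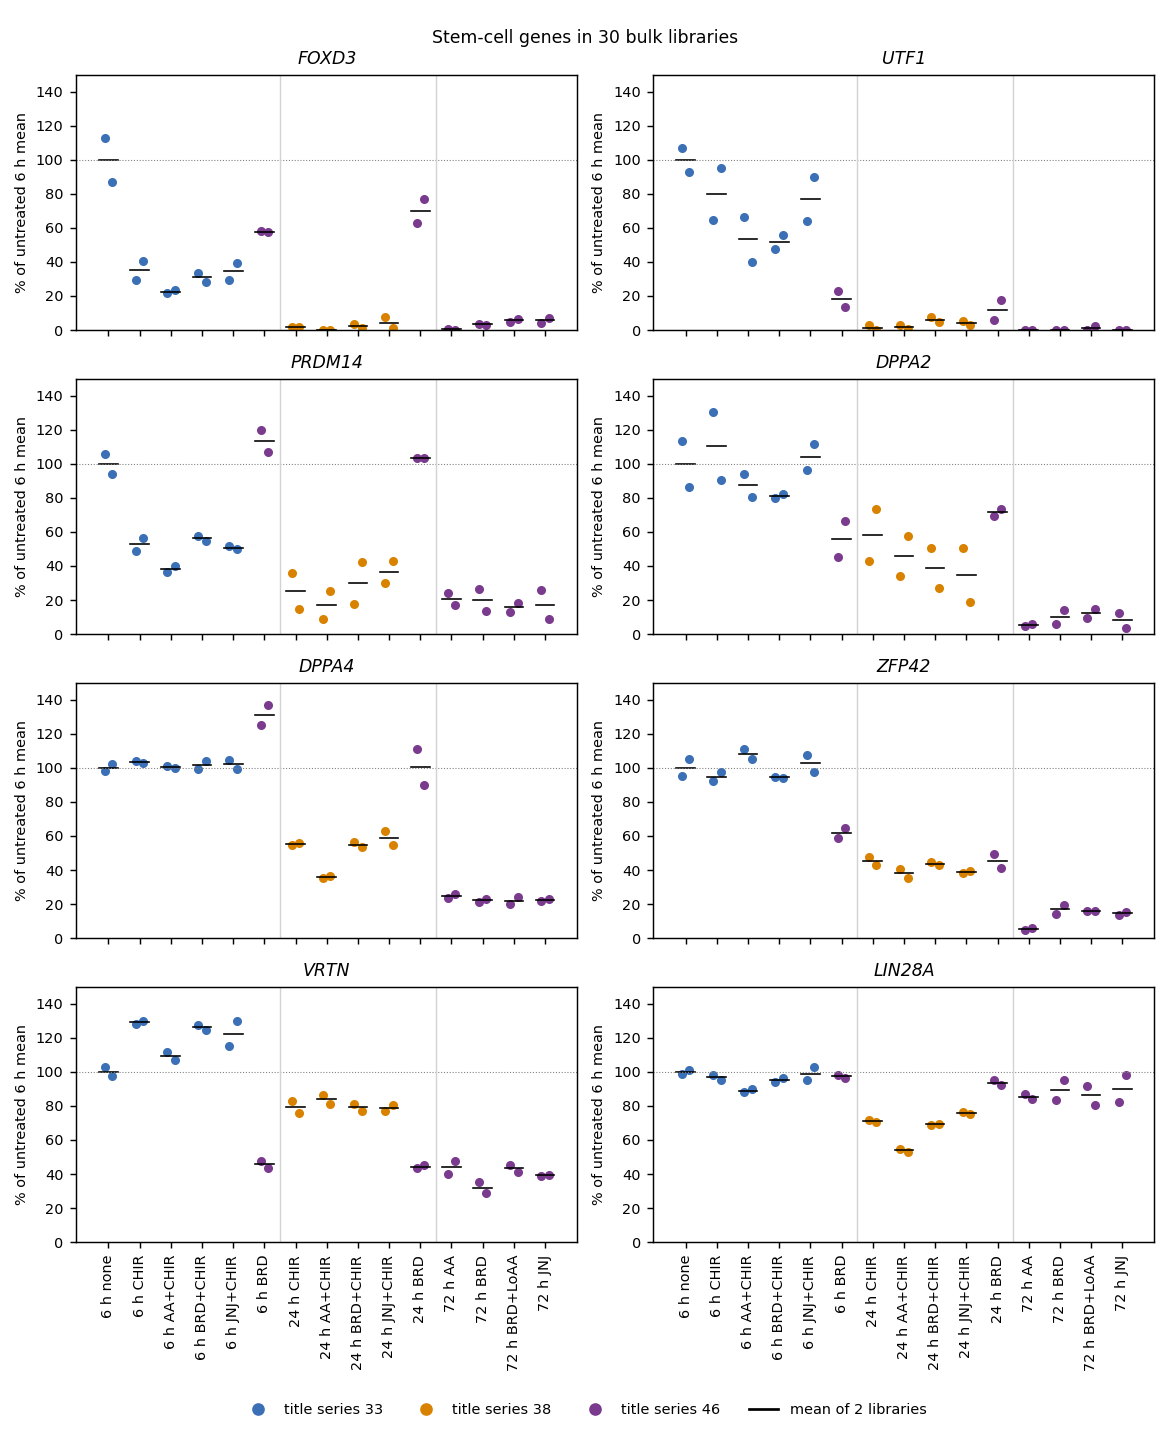
Level of each of the 8 genes in each of the 30 bulk libraries as a percentage of the mean of the 2 untreated 6 h libraries (vertical axis, linear), by group and time (horizontal axis), with points coloured by the number in the library title and a line at the mean of each pair. FOXD3 and UTF1 are near 0 in the 24 h groups that contain CHIR, LIN28A is at 53.8% with AA+CHIR at 24 h and 85.4% with AA at 72 h, and VRTN is low in every library of series 46.

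At 24 h the members had separated by how much RNA was left. With AA+CHIR, FOXD3 had 0 counts in both libraries and UTF1 was at 0.213 and 0.0383 CPM, which is 1.64% of the untreated 6 h mean. PRDM14 kept 17.01% of that mean, DPPA4 36.1%, ZFP42 38.2%, DPPA2 45.8%, LIN28A 53.8% and VRTN 83.8%. In this order the ranges of the 2 libraries overlapped between DPPA4 and ZFP42, and the range of DPPA2 overlapped those of DPPA4, ZFP42 and LIN28A. FOXD3, UTF1, PRDM14 and VRTN were each separate from their neighbours. In all, 6 of the 8 were under 50% and 2 under 10%. With CHIR and no Activin A, 4 were under 50%, namely UTF1 at 1.49%, FOXD3 at 1.75%, PRDM14 at 25.3% and ZFP42 at 45.2%.

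DPPA4, LIN28A and FOXD3 were lower with AA+CHIR than with CHIR at 24 h, while the others did not pass. DPPA4 was at 379 and 390 CPM with CHIR and at 248 and 255 CPM with AA+CHIR (log2 -0.61 ± 0.11, adjusted p = 0.0046 by edgeR). LIN28A was at 1379 and 1356 CPM with CHIR and at 1054 and 1010 CPM with AA+CHIR (log2 -0.41 ± 0.08, adjusted p = 0.00723). For both genes the groups did not overlap. FOXD3 was at 0.652 and 0.533 CPM with CHIR, and at 0 with AA+CHIR it was at least 10.7-fold lower, taking a floor of 3 counts over the AA+CHIR pair (adjusted p = 0.0292 by edgeR). That floor covers counting error only. In the 2 AA+CHIR libraries 65 and 91 genes had 0 counts where the other replicate had 50 or more, so the bound is less certain. All 3 members called fell, where 2.85% of all 15586 genes were called. Each call rests on few libraries: leaving out any 1 left 0 or 1 of the 3, with adjusted p = 0.0547 to 0.198 by edgeR for those lost, and only DPPA4 without CHIR replicate 1 was kept. ZFP42, at 168 and 150 CPM with CHIR and 143 and 125 CPM with AA+CHIR, did not pass (log2 -0.25, adjusted p = 0.436). In the same libraries the 7 primitive streak markers summed to 1391 to 1452 CPM with CHIR and 2605 to 2745 CPM with AA+CHIR, and POU5F1, SOX2 and NANOG to 1112 to 1132 and 820 to 835 CPM, with none at 0 in either; their part in the member differences was not tested.

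The effect of Activin A on DPPA4 differed between 6 h and 24 h. DPPA4 was at 724 and 716 CPM with CHIR and at 703 and 694 CPM with AA+CHIR at 6 h, so the Activin difference was -0.04 at 6 h and -0.61 at 24 h on the log2 scale. The difference between these was -0.57 ± 0.13 (95% interval -0.84 to -0.30, adjusted p = 0.0183 by edgeR over 15717 genes). It was the single member called, against 1.92% of all genes, and the call was lost in 6 of the 8 fits that left out 1 library (adjusted p = 0.055 to 0.0865). The same term was -0.43 ± 0.14 for ZFP42 (adjusted p = 0.147) and -0.28 ± 0.09 for LIN28A (adjusted p = 0.124).

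No member passed between BRD+CHIR or JNJ+CHIR and CHIR alone at 24 h. ZFP42 was at 157 and 151 CPM with BRD+CHIR and at 135 and 139 CPM with JNJ+CHIR. DPPA4 was at 392 and 372 CPM with BRD+CHIR and at 437 and 382 CPM with JNJ+CHIR, around the CHIR values of 379 and 390 CPM. BRD+CHIR against CHIR called 0 members and 0% of genes (738 genes had an unadjusted p under 0.05, and DESeq2 called 17), and JNJ+CHIR against CHIR called 0 members and 0.154% of genes. Against CHIR, whose libraries all 3 of these comparisons share, the DPPA4 difference was thus -0.61 with AA and its 95% interval with BRD ran from -0.24 to 0.23. BRD+CHIR against JNJ+CHIR called 0 members and 0.18% of genes (28 genes, and 138 by DESeq2). For that pair the interval of the log2 difference ran from -0.10 to 0.44 for ZFP42, from -0.34 to 0.14 for DPPA4, from -0.30 to 0.03 for LIN28A and from -0.25 to 0.25 for VRTN. It was wider for PRDM14, -1.39 to 0.80, for DPPA2, -1.18 to 1.52, for FOXD3, -2.64 to 0.93, and for UTF1, -4.18 to 5.23, so these data set no close limit on the 4 low genes.

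From 6 h to 24 h most members fell under every CHIR-containing treatment. With CHIR 6 of 8 were called lower, where 37.4% of all genes were called. With AA+CHIR 7 of 8 were lower against 41.8% of genes, with BRD+CHIR 6 of 8 against 36.6%, and with JNJ+CHIR 7 of 8 against 40.8%. DPPA4 and ZFP42 were among those lower in all 4. The PRDM14 call with AA+CHIR was lost with the replicate block (adjusted p = 0.0511) and without AA+CHIR replicate 1 of either time or replicate 2 at 6 h (0.0944 to 0.389). The UTF1 call with BRD+CHIR was lost without either 24 h library or replicate 2 at 6 h (0.06 to 0.111), and the DPPA2 call with JNJ+CHIR without replicate 2 of either time (0.0604 to 0.16). With BRD alone 2 of 8 were lower against 11.7% of genes: ZFP42 went from 206 and 227 CPM to 174 and 144 CPM (log2 -0.46 ± 0.12, adjusted p = 0.0124 by edgeR) and DPPA4 from 873 and 954 CPM to 772 and 625 CPM (log2 -0.39 ± 0.10, adjusted p = 0.0117). Both of these calls were lost without BRD 6 h replicate 2 or without BRD 24 h replicate 2 (adjusted p = 0.152 to 0.251). The BRD libraries are the only ones at 6 h and 24 h from the same title series.

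CHIR with BRD, compared with BRD alone at 24 h, was lower for 4 members and higher for 1, against 35.5% of all genes called. FOXD3 was at 21.3 and 26.0 CPM with BRD alone and at 1.15 and 0.438 CPM with BRD+CHIR (log2 -4.85 ± 0.93, adjusted p = 0.000703 by edgeR). PRDM14 was at 32.15 and 32.07 CPM with BRD alone and at 5.49 and 13.1 CPM with BRD+CHIR (log2 -1.80 ± 0.53, adjusted p = 0.0132; 0.151 without BRD+CHIR replicate 1). DPPA4 was lower by -0.87 ± 0.11 and LIN28A by -0.44 ± 0.08 on the log2 scale (adjusted p = 1.31e-05 and 0.000331). VRTN was higher by 0.83 ± 0.12 (adjusted p = 3.81e-05). This contrast also runs between title series 38 and 46, and the parts of series and CHIR cannot be told apart.

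By 72 h with AA all 8 members were called lower than in untreated 6 h cells, where 50.1% of all 16098 genes were called; by 24 h with AA+CHIR 6 of 8 were, where 41.9% were called. The median log2 change of the members was -3.23 at 72 h and -1.43 at 24 h, beside -0.09 and -0.03 over all genes. UTF1 had 0 counts in both AA libraries and was at least 31.0-fold lower than untreated (floor of 3 counts over the pair), and FOXD3 had gone from 38.1 and 29.4 CPM to 0.269 and 0 CPM. ZFP42 went from 334 and 368 CPM to 17.3 and 20.9 CPM, a log2 change of -4.21 ± 0.15 (adjusted p = 4.95e-18 by edgeR). DPPA2 went from 12.5 and 9.54 CPM to 0.538 and 0.639 CPM (log2 -4.23 ± 0.66, adjusted p = 5.45e-06). These 4 genes were the only members under 10% of the untreated mean. All 8 members were without overlap between the 2 groups, a share that was not counted over all genes. DPPA4, at 681 and 711 CPM untreated and 165 and 180 CPM with AA, fell by 2.01 ± 0.11 on the log2 scale, leaving 24.8%. PRDM14, at 7.53 and 5.33 CPM, kept 20.7% (log2 -2.25 ± 0.49, adjusted p = 0.000396), and VRTN, at 73.7 and 87.4 CPM, kept 44.1% (log2 -1.19 ± 0.11). For AA+CHIR at 24 h against untreated cells, FOXD3 was at least 612-fold lower (floor of 3 counts over the pair), PRDM14 changed by -2.56 ± 0.47, DPPA4 by -1.47 ± 0.10 and ZFP42 by -1.39 ± 0.12, and DPPA2 and VRTN did not pass (adjusted p = 0.0699 and 0.0546 by edgeR). The FOXD3 bound covers counting error only and rests on 24 h libraries, in which a 0 is less certain.

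LIN28A was lower with AA+CHIR at 24 h than in untreated cells at 6 h or with AA at 72 h. The 3 groups are of title series 33, 38 and 46. It was at 1897 and 1937 CPM untreated at 6 h, at 1054 and 1010 CPM with AA+CHIR at 24 h and at 1664 and 1611 CPM with AA at 72 h. The fall to 24 h was -0.89 ± 0.09 on the log2 scale (adjusted p = 1.35e-08 by edgeR), and the rise from 24 h to 72 h was 0.67 ± 0.09 (adjusted p = 1.1e-06). At 72 h the difference from untreated cells was -0.23 ± 0.09 (adjusted p = 0.0402), and it no longer passed with DESeq2, with RLE scaling or without any 1 of the 4 libraries (adjusted p = 0.0556 to 0.161). From AA+CHIR at 24 h to AA at 72 h, 1 member rose and 4 fell, against 44.8% of all genes called: ZFP42 by -2.82 ± 0.14, DPPA2 by -3.10 ± 0.66, DPPA4 by -0.54 ± 0.10 and VRTN by -0.93 ± 0.11. The same step in the BRD arm called 1 higher and 5 lower against 44.3% of genes, and in the JNJ arm 1 higher and 4 lower against 44.2%; LIN28A was the member called higher in both. The LIN28A call in the JNJ arm was lost without either 24 h library or JNJ 72 h replicate 2 (adjusted p = 0.0803 to 0.387). The DPPA2 calls were lost without BRD+CHIR 24 h replicate 1 or BRD 72 h replicate 1 in the BRD arm (0.105 and 0.112), and without JNJ+CHIR 24 h replicate 1 or JNJ 72 h replicate 2 in the JNJ arm (0.117 and 0.127). The UTF1 call in the BRD arm was lost without BRD+CHIR 24 h replicate 1 or either BRD 72 h library (0.0813 to 0.144). In the JNJ arm 2 further calls appeared without 1 library: a rise of FOXD3 without JNJ+CHIR 24 h replicate 1 (log2 2.65, adjusted p = 0.00155) and a fall of PRDM14 without JNJ 72 h replicate 1 (log2 -2.04, 0.015). In the AA arm DESeq2 called FOXD3 higher (adjusted p = 0.0299), from 0 counts in both 24 h libraries to 2 and 0. The 72 h libraries were sorted and the earlier ones were not. The 24 h and 72 h libraries of this step are also of title series 38 and 46. Neither can be told apart from time here. Within series 46, LIN28A with BRD alone was at 1849 to 1886 CPM at 6 h and 1767 to 1826 CPM at 24 h. In the single cells of the Activin protocol, LIN28A in Endo at 72 h was at 83.2% of its 36 h level. With AA at 72 h the order of loss was UTF1, FOXD3, DPPA2, ZFP42, PRDM14, DPPA4, VRTN and LIN28A, and the ranges overlapped between UTF1 and FOXD3, between DPPA2 and ZFP42 and between PRDM14 and DPPA4. In the BRD and JNJ arms the order of means was the same. There the range of PRDM14 overlapped those of DPPA2, ZFP42 and DPPA4, and in the JNJ arm FOXD3 and DPPA2 overlapped as well. With BRD+LoAA PRDM14 (15.6%) came just before ZFP42 (15.9%), and PRDM14 overlapped both ZFP42 and DPPA2.

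At 72 h ZFP42 was higher in each of the 3 compound arms than with AA. It was at 17.3 and 20.9 CPM with AA, at 50.6 and 67.8 CPM with BRD, at 48.0 and 54.0 CPM with JNJ and at 56.1 and 55.8 CPM with BRD+LoAA. Every compound library lay above both AA libraries, at 14.5% to 16.9% of the untreated 6 h mean on average, against 5.45% with AA. The log2 difference was 1.65 ± 0.19 for BRD (adjusted p = 3.97e-05 by edgeR), 1.43 ± 0.19 for JNJ (adjusted p = 0.000146) and 1.56 ± 0.19 for BRD+LoAA (adjusted p = 7.25e-05). FOXD3 was at 1.27 and 1.10 CPM with BRD, 1.395 and 2.474 CPM with JNJ, and 1.65 and 2.18 CPM with BRD+LoAA, above the AA libraries at 0.269 and 0 CPM. It passed for JNJ (adjusted p = 0.0471) and BRD+LoAA (adjusted p = 0.0486) and not for BRD (adjusted p = 0.113). Both FOXD3 calls were lost with DESeq2 (adjusted p = 0.0657 and 0.064), with no filter on low counts, and without any 1 library. DPPA2 and UTF1 were too low to be tested at 72 h; of the 6 tested, BRD called 1 higher against 20.8% of all genes, JNJ 2 against 18.1% and BRD+LoAA 2 against 18.9%, and none was lower. The 3 comparisons share the AA libraries.

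DPPA4, LIN28A, PRDM14 and VRTN did not pass between any compound arm and AA. DPPA4 was at 148 and 162 CPM with BRD and at 154 and 160 CPM with JNJ, beside 165 and 180 CPM with AA. LIN28A was at 1596 and 1826 CPM with BRD and 1577 and 1877 CPM with JNJ, around the AA values. VRTN was at 64.4 and 52.7 CPM with BRD (log2 -0.46 ± 0.15 against AA, adjusted p = 0.0501; 0.0459 with RLE scaling and 0.0398 without BRD replicate 1). BRD against JNJ called 0 members and 0% of genes (385 genes were under 0.05 before adjustment, and DESeq2 called 4), as did BRD+LoAA against BRD with 0% (718 genes were under 0.05 before adjustment, and DESeq2 called 5). The interval for BRD against JNJ was -0.16 to 0.59 for ZFP42 and -0.62 to 0.04 for VRTN on the log2 scale.

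**Figure D2:**
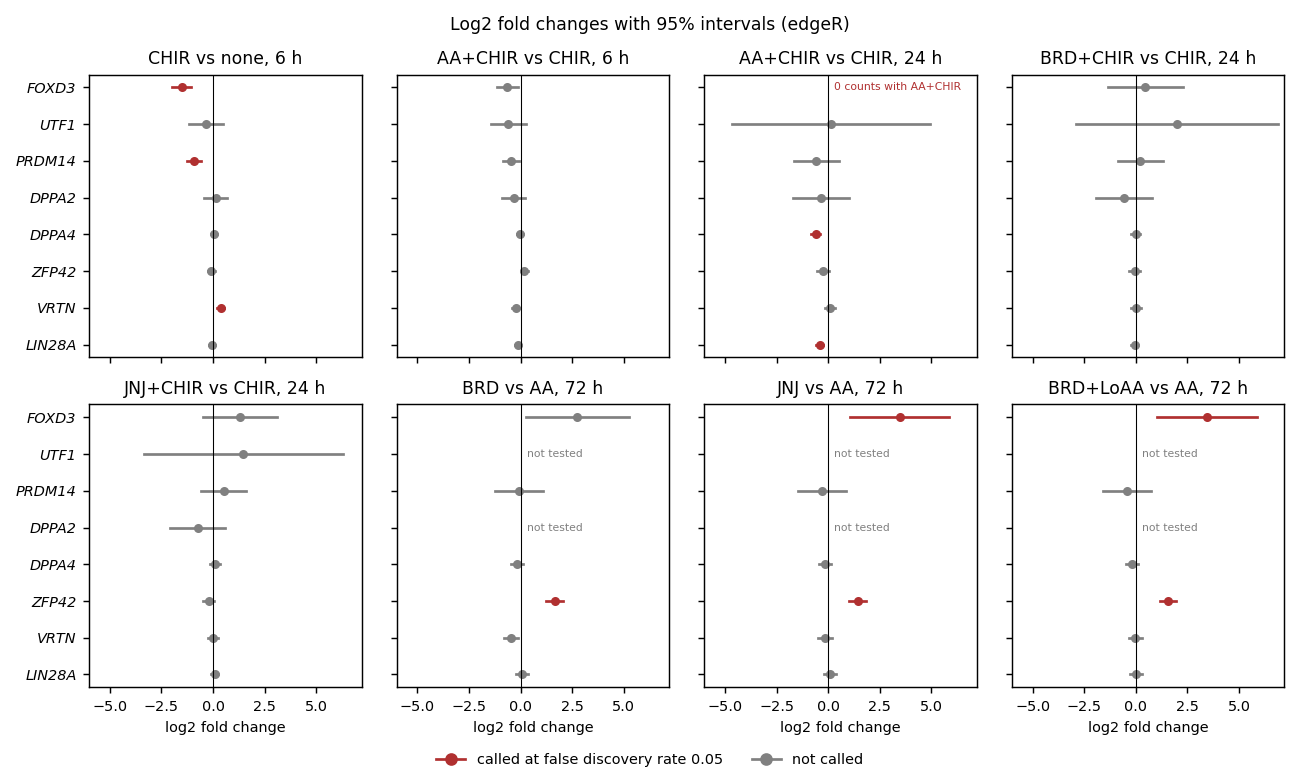
Log2 fold change (horizontal axis) with its 95% interval for the 8 genes (rows) in 8 comparisons (panels), from CHIR against none at 6 h to the compound arms against AA at 72 h. Red marks an adjusted p under 0.05 by edgeR. No value is drawn for FOXD3 in AA+CHIR against CHIR at 24 h, with 0 counts in AA+CHIR. DPPA2 and UTF1 have none at 72 h, where they were not tested. ZFP42 at 72 h is to the right of 0 in all 3 compound arms, between 1.43 and 1.65, and FOXD3 is the member furthest left for CHIR at 6 h, at -1.51.

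Other cell states moved with the same 72 h arms. POU5F1, SOX2 and NANOG summed to 71.6 to 72.2 CPM with AA, to 150 to 159 CPM with BRD, to 165 to 205 CPM with JNJ and to 160 to 201 CPM with BRD+LoAA, with none of the 3 at 0. SOX2 was higher than with AA by 3.62 (BRD), 3.54 (JNJ) and 3.98 (BRD+LoAA) on the log2 scale. The 7 definitive endoderm markers summed to 4812 to 5410 CPM with AA and to 672 to 835 CPM across the compound arms, and CER1 was lower by -5.84 with BRD. GATA3, the tested member of the trophoblast-type list, was higher by 4.55 with BRD, 4.53 with JNJ and 4.70 with BRD+LoAA. CDX2 of that list was at 0 in every library of the 3 compound arms, and HAND1 in both AA libraries. The neural list summed to 3.36 to 3.84 CPM with AA and 14.9 to 25.6 CPM in the compound arms. The neural crest list was lower in the compound arms, at 42.9 to 57.6 CPM against 110 to 114 CPM with AA. So was the germ cell list, at 93.2 to 139 CPM against 237 to 262.5 CPM. Whether cells of any of these states had a part in the ZFP42 difference was not tested.

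BRD alone set VRTN and UTF1 apart from the other 6 h libraries. VRTN was at 87.1 and 79.7 CPM with BRD, below both untreated libraries at 187.5 and 178.1 CPM (log2 -1.13 ± 0.09, adjusted p = 5e-09 by edgeR). UTF1 was at 1.74 and 1.02 CPM against 8.19 and 7.13 CPM untreated (log2 -2.45 ± 0.45, adjusted p = 0.000134). ZFP42 was lower by -0.70 ± 0.08, FOXD3 by -0.79 ± 0.21 and DPPA2 by -0.84 ± 0.28, and DPPA4 was higher by 0.39 ± 0.07 (adjusted p = 1.23e-06, 0.00448, 0.0168 and 0.000113). That makes 1 higher and 5 lower of 8, but 54% of all genes were called in this comparison, which runs between title series 33 and 46. The DPPA2 and FOXD3 calls were both lost without untreated replicate 1 (adjusted p = 0.135 and 0.0717), and DPPA2 also without BRD replicate 1 (adjusted p = 0.197).

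VRTN separated the libraries by title series. It lay between 52.7 and 87.4 CPM in all 12 libraries of series 46, at 6 h, 24 h and 72 h, and between 138 and 238 CPM in the other 18, with no overlap. RPL27A, a ribosomal protein gene, was at a mean of 73.1 CPM in the BRD 6 h group and 77.1 CPM in the BRD 24 h group, against 862 to 969 CPM in the series 33 groups. Within series 46, AA at 72 h against BRD alone at 24 h called 6 of 8 members lower, against 35.1% of all genes: VRTN was not among them (log2 -0.02 ± 0.11, adjusted p = 0.932) and neither was LIN28A (adjusted p = 0.281). ZFP42 differed there by -3.06 ± 0.15, DPPA4 by -2.02 ± 0.11, DPPA2 by -3.75 ± 0.66, PRDM14 by -2.30 ± 0.49 and FOXD3 by -7.12 ± 0.86. The FOXD3 value rests on 2 counts over the AA pair, under the floor of 3 counts, so its size is uncertain. UTF1 was at least 3.68-fold lower. The UTF1 call was lost without either AA library or BRD replicate 2 (adjusted p = 0.0676 to 0.116). Against untreated 6 h cells of series 33, AA at 72 h differed by -1.19 for VRTN, -4.21 for ZFP42, -2.01 for DPPA4 and -2.25 for PRDM14. The DPPA4 and PRDM14 differences were thus of like size against either reference, the ZFP42 difference was smaller within series 46, and that of VRTN was near 0; the 2 references also differ in treatment and time. Set against BRD alone at 6 h in place of untreated cells, VRTN with AA at 72 h was at 96.6% and ZFP42 at 8.82%.

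**Figure D3:**
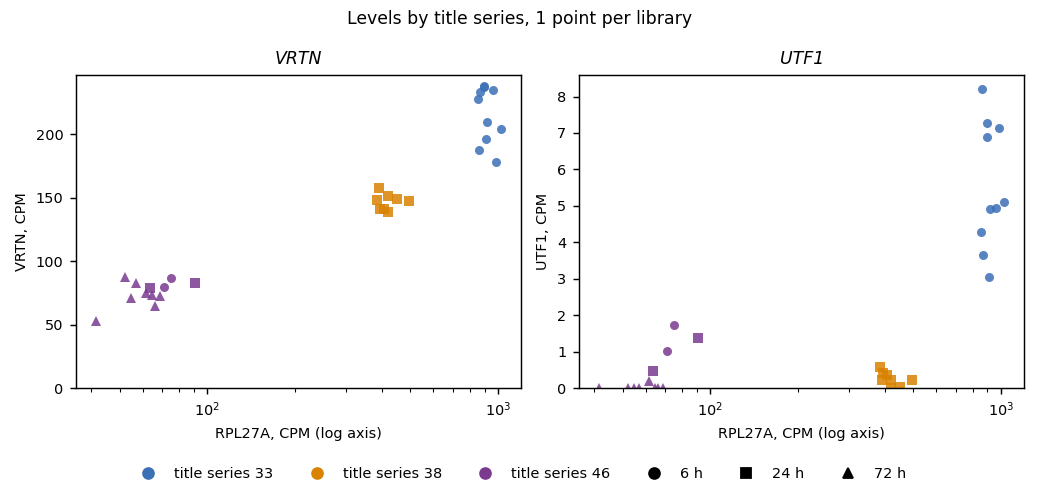
Level of VRTN and UTF1 (vertical axis, CPM) against RPL27A (horizontal axis, CPM, log scale) in the 30 bulk libraries, coloured by the number in the library title and with a marker shape for each time. The 12 libraries of series 46 sit together at low RPL27A, with VRTN at 52.7 to 87.4 CPM, whichever their time.

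Over the 30 libraries the genes whose levels followed each member most closely (Pearson r of log2 CPM among 11157 candidates) were in part shared. CNMD was among the 3 nearest to both ZFP42 and DPPA2, and SEPHS1 to both DPPA2 and DPPA4. SLC7A8, an amino-acid transporter, was nearest to ZFP42 (r = 0.971), and CNMD to DPPA2 (r = 0.949). SCG3 was nearest to DPPA4 (r = 0.967), RBBP7, a histone-binding protein, to LIN28A (r = 0.950), and CLDN6, a tight-junction protein, to UTF1 (r = 0.967). COX7C (r = 0.965) and EIF5AL1 (r = 0.964) came next for UTF1. At 6 h COX7C was at 674.5 to 802.4 CPM in series 33 and 162.9 to 184 CPM in series 46. EIF5AL1 was at 42.7 to 93.4 and 2.72 to 3.01 CPM. At 24 h neither was lower in series 46, with medians of 187.1 and 2.39 CPM against 131.3 and 1.42 CPM in series 38. TERF1, a telomere-binding protein, was nearest to both PRDM14 (r = 0.879) and FOXD3 (r = 0.955). CDCA5 (r = 0.976), PSMD8 (r = 0.975) and RPL27A (r = 0.975) were nearest to VRTN. Among the members, ZFP42, DPPA2 and DPPA4 went together (r = 0.923 for ZFP42 with DPPA2, 0.897 for DPPA2 with DPPA4, 0.889 for ZFP42 with DPPA4), while LIN28A and VRTN did not (r = -0.01). Within the 72 h libraries alone r was 0.90 for SLC7A8 with ZFP42, 0.73 for CNMD with DPPA2 and -0.37 for SCG3 with DPPA4. It was 0.66 for RBBP7 with LIN28A, -0.33 for CLDN6 with UTF1 and 0.57 for CDCA5 with VRTN. For TERF1 it was -0.05 with PRDM14 and 0.72 with FOXD3. The 30 points share treatments, times and title series, so these are descriptions only.

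The core factors and other stem-cell genes moved on their own schedule. With AA+CHIR at 24 h POU5F1 kept 88.9% of its untreated level and NANOG 75.7%, while SOX2 kept 2.67%, near the 0% of FOXD3 and 1.64% of UTF1. With AA at 72 h POU5F1 kept 6.96%, SOX2 0.522% and NANOG 11.8%. Of 17 other genes of the primed stem-cell state, 4 fell with CHIR at 6 h, where 1.24% of all genes were called lower, among them DNMT3B, TERF1 and THY1 with log2 changes of -0.78, -0.64 and -0.60. With AA at 72 h 13 fell, where 26.8% of all genes were called lower, with a median over the list of -3.11 beside -0.09 over all genes. PHC1, a Polycomb protein (-4.34), DNMT3B (-3.11), TERF1 (-2.88) and SFRP2, a secreted WNT antagonist (-5.39), were among those that fell. TDGF1, the Nodal co-receptor (0.99), ZIC2 (0.74) and SALL4 (0.50) rose, and are named after their values were seen. At 72 h FGF2 was higher with BRD than with AA by 2.01, USP44 by 1.60 and PHC1 by 0.97, while ZIC2 was lower (-0.90); 4 of 16 tested were higher and 3 lower, where 9.85% of all genes were called higher and 11% lower.

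Around LIN28A, 10 genes of the let-7 pathway were followed. With AA at 72 h, 4 were higher and 3 lower than untreated, where 50.1% of all genes were called (23.3% higher and 26.8% lower), with a median of 0.14 beside -0.09 over all genes. TUT4, the uridylyltransferase that LIN28A recruits to let-7 precursors, was higher by 2.67, and the let-7 targets HMGA2 and IGF2BP2 by 1.00 and 1.12, while MYCN, also a let-7 target, was lower (-2.68). In the same comparison, of 7 partners of PRDM14 and FOXD3, 3 were higher and 3 lower, with DNMT3B, a DNA methyltransferase, at -3.11, EHMT1 and EZH2, histone methyltransferases, at -0.93 and -0.66, and CBFA2T2, a co-repressor that binds PRDM14, at 1.30. Of 11 genes of the naive state and germ cells, 9 were in the table, and 1 was higher and 3 lower, a share near the 50.1% of all genes.

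After filtering, 4193 cells remained at 36 h, 4511 of the Endo library and 5632 of the Meso library, with 77214063, 33785329 and 45096392 unique molecular identifiers (UMIs) and a median per cell of 21150, 7680 and 7874. Levels are UMIs per 1000000 UMIs of the library (CPM). The added mNeonGreen reporter transcript was at 242.5 CPM in Endo, 0.13 CPM at 36 h and 0 in Meso; what a reporter line did to the members was not tested. Each condition was 1 library, so there is no test, and the 95% intervals cover counting error only. The libraries share 23 (36 h and Endo), 38 (36 h and Meso) and 31 (Endo and Meso) cell barcodes. SOX17, an endoderm factor, was at 122 CPM in Endo, and TBXT, a mesoderm and streak factor, at 326 in Meso and 3.05 in Endo.

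ZFP42 and DPPA4 were the abundant members that differed most between 36 h and 72 h. ZFP42 was at 56.5 CPM at 36 h (95% interval 54.8 to 58.2), 11.1 in Endo (9.98 to 12.2) and 22.6 in Meso (21.2 to 24.0). Endo thus had 19.6% of the 36 h level (17.6% to 21.8%) and Meso 40.0% (37.3% to 42.9%). DPPA4 was at 214.7, 76.2 and 49.5 CPM, so Endo had 35.5% of the 36 h level (34.0% to 37.0%) and Meso 23.0% (22.0% to 24.1%). The order of these 2 libraries was opposite for the 2 genes: ZFP42 in Endo was 49.0% of Meso, and DPPA4 was 154%. DPPA2 was at 3.70, 1.63 and 1.51 CPM, with Endo at 44.0% of 36 h (32.3% to 58.8%).

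LIN28A and VRTN were the abundant members that differed least from 36 h in both 72 h libraries. LIN28A was at 234 CPM at 36 h, 195 in Endo and 222 in Meso, or 83.2% (80.9% to 85.6%) and 94.9% (92.6% to 97.2%) of the 36 h level. VRTN was at 63.5, 46.1 and 42.1 CPM, or 72.7% and 66.3%. These Endo levels depended on the cell filter. In cells of at least 2000 detected genes LIN28A was at 237.7 CPM at 36 h, 209.4 in Endo and 223.9 in Meso. VRTN was at 64.2, 50.4 and 42.9 CPM. Both Endo values lay above the 95% intervals of the main filter, 190.2 to 199.7 and 43.9 to 48.5 CPM.

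FOXD3 and PRDM14 were rare, with the fewest UMIs in Meso. FOXD3 had 64 UMIs at 36 h, 37 in Endo and 2 in Meso, and per UMI of the library the Endo level was 132% of 36 h (85.7% to 201%) and the Meso level 5.35% (0.634% to 20.1%). In cells of at least 2000 detected genes FOXD3 was at 0.827 CPM at 36 h and 0.797 CPM in Endo. PRDM14 had 102, 40 and 5 UMIs, with Endo at 89.6% (60.6% to 130%) and Meso at 8.39% (2.67% to 20.2%) of 36 h. Each fate is 1 library, the Meso values rest on 2 and 5 UMIs, and the share from free RNA is not known, so no difference between the fates is read from them. UTF1 had 13, 1 and 3 UMIs, too few to order the libraries. In 36 h cells, a time between those of the bulk libraries, FOXD3 was thus still detected, where the 24 h AA+CHIR libraries had 0 counts; the assays differ.

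**Figure D4:**
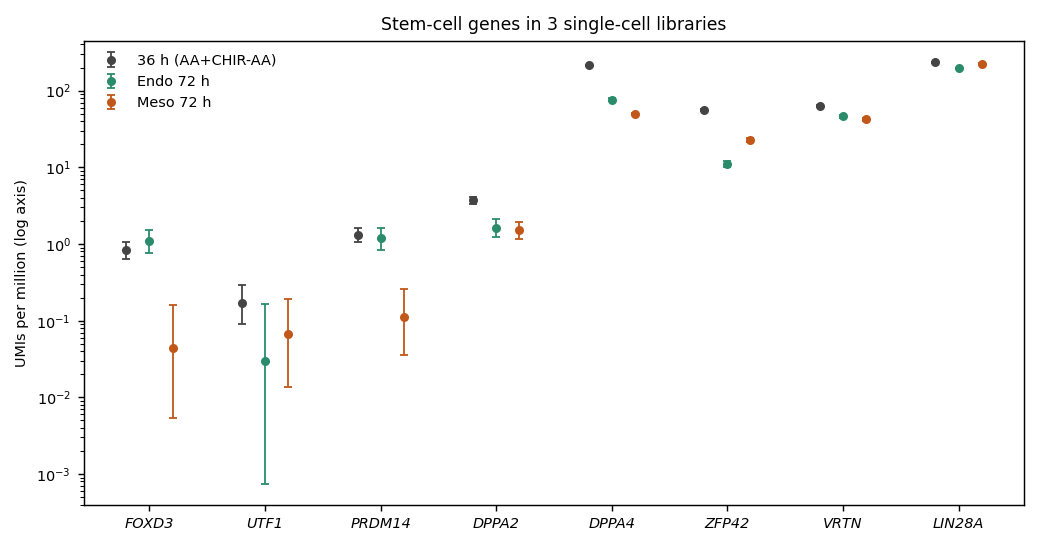
CPM (UMIs per 1000000 UMIs of the library; vertical axis, log scale) of the 8 genes in the 3 single-cell libraries (36 h, Endo 72 h, Meso 72 h), with 95% Poisson intervals that cover counting error only. ZFP42 is lowest in Endo and DPPA4 lowest in Meso, and FOXD3 and PRDM14 have 2 and 5 UMIs in Meso.

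With each cell thinned to 2000 UMIs, which left 3416, 3685 and 5539 cells, ZFP42 was found in 11.2% of 36 h cells, 2.14% of Endo and 4.57% of Meso. Without thinning the shares were 52.6%, 7.49% and 16.1%. LIN28A was found in 36.4%, 29.6% and 35.4% after thinning (76.0%, 58.1% and 79.0% without), and VRTN in 13.5%, 7.27% and 8.43%. DPPA4 was found in 34.3%, 13.5% and 9.13% of thinned cells. At this depth 32.6% of 36 h cells, 54.8% of Endo cells and 52.1% of Meso cells had no UMI of any of the 8. No cell type that should lack these genes was set apart, so the share from free RNA is not known.

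Within Endo, ZFP42 was low in thinned cells with and without a SOX17 UMI. After thinning, a cell that makes SOX17 can have no SOX17 UMI, so cells without one cannot be taken as lacking SOX17. The split therefore cannot say whether the members differ between cells that make SOX17 and cells that do not. Below, with and without SOX17 refer to the UMI only. ZFP42 was at 13.0 CPM (7.82 to 20.3) in the 731 thinned cells with a SOX17 UMI and at 10.7 (8.19 to 13.6) in the 2954 without, with overlapping intervals. LIN28A was at 209 (186 to 233) in cells with SOX17 and 175 (164 to 186) in those without, and VRTN at 52.7 (41.6 to 65.8) and 36.2 (31.5 to 41.4). POU5F1 went the other way, at 232 with SOX17 and 331 without. FOXD3 had 9 UMIs in the cells without SOX17 and 0 in those with it, which in cells numbering 731 allows a level of up to 2.52 CPM. These cells come from 1 library and are not replicates.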

How the data were processed

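Expression was measured in 30 bulk RNA-seq libraries (SMARTer stranded total RNA, per the labels) and 3 single-cell libraries (10x 3' v2). The authors deposited estimated counts per gene for the bulk libraries. Salmon 1.4.0, limma 3.48.1, edgeR 3.34.0 and Seurat 4.0.2 are listed per the submitters' processing notes with no role given, on GRCh38, and the filter behind the 16103 genes is not given in the sources used here. For the single cells the authors deposited UMI counts per gene and barcode, made with Cell Ranger 3.0.2 per the file headers.

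Bulk counts were rounded to whole numbers, scaled with TMM over all 30 libraries and tested with edgeR 4.0.16 (quasi-likelihood F-test, filterByExpr in each fit, Benjamini-Hochberg adjustment over all genes tested, threshold 0.05) in R 4.3.3. Groups of 1 time were fitted together (6, 5 and 4 residual degrees of freedom at 6, 24 and 72 h), all libraries together (15) for comparisons across times, and the 6 h and 24 h libraries (11) for the change of the Activin effect; the last 2 kept the full fit's dispersion trend when a library was left out. The script was tested on simulated counts: with the CHIR against none comparison at 6 h over 14401 genes, 89.0% of genes changed by 1 on the log2 scale were recovered, and with AA+CHIR against CHIR at 24 h over 15364 genes 6.67%. Of genes changed by 2, 68.7% were recovered with AA+CHIR at 24 h against none at 6 h over 15100 genes (0.99% of those changed by 1), and 15.2% with the change of the Activin effect over 14948 genes (0% of those changed by 1). Of the simulated calls, 6.40% were false for CHIR against none at 6 h and 9.0% for AA+CHIR against CHIR at 24 h, both above the threshold. The false share was 4.35% for BRD against AA at 72 h, 4.17% for AA+CHIR at 24 h against none at 6 h, and 0% for the change of the Activin effect. All genes of a simulated fit had the same dispersion. It was lower than the common dispersion of these data at 24 h and at 72 h. In the fit of all libraries and that of the 6 h and 24 h libraries it was higher. The recovered and false shares therefore need not hold for these data. The share of the untreated 6 h mean left was the measure of loss. Alternatives were DESeq2 1.42.0, RLE scaling, no filter on low counts, a replicate block and leaving out each library.

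Barcodes under 500 detected genes or over 10% mitochondrial UMIs were dropped, and levels have exact 95% Poisson or binomial intervals; no doublet caller was run, no cells were clustered, and the aggregated matrix was not used. The members and gene lists were chosen with earlier results of these data known. All 8 members are named; other lists give counts and up to 4 genes with the smallest p. The genes most like a member are the 3 with the highest Pearson r of log2(CPM + 1) among genes of at least 5 CPM in untreated cells. The result of 1 listed gene is not reported here.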

Additional observations from a re-analysis of the deposited data

Results flagged for a closer look

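The change that Activin A made to DPPA4 in the presence of CHIR differed between 6 h and 24 h by a test of the difference itself. The difference was -0.57 ± 0.13 on the log2 scale (edgeR interaction term, adjusted p = 0.0183), with a 95% interval of -0.84 to -0.30. At 24 h both AA+CHIR libraries lay below both CHIR libraries, and the fits without 1 library gave -0.55 to -0.59 with adjusted p = 0.0419 to 0.0865; 6 of those 8 no longer passed. The 6 h and 24 h libraries also differ in title series, 33 and 38, which cannot be told apart from time.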

How the results depend on the processing

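Over 228 refits of the 28 comparisons, the number of members called moved by more than 1.5 times in 31; of the 156 refits whose main count was above 0, 125 stayed within it. No called value changed sign. RLE scaling gave 2 members called for BRD against AA at 72 h in place of 1. DESeq2, no filter on low counts, and the replicate block each gave 1 in place of 2 for JNJ against AA and for BRD+LoAA against AA at 72 h; FOXD3 was the member lost. DESeq2 gave 3 in place of 1 for the change of the Activin effect between 6 h and 24 h. Without 1 library each, the number called ranged from 1 to 2 for CHIR against none at 6 h (main 3), from 0 to 1 for AA+CHIR against CHIR at 24 h (main 3), from 1 to 2 for BRD against AA, at 1 for JNJ against AA and for BRD+LoAA against AA at 72 h (main 2), from 0 to 2 for BRD at 24 h against 6 h (main 2), from 3 to 6 for JNJ at 72 h against JNJ+CHIR at 24 h (main 5) and from 0 to 1 for the change of the Activin effect (main 1). Over all genes DESeq2 called 729 against 444 for AA+CHIR against CHIR at 24 h, 146 against 24 for JNJ+CHIR against CHIR at 24 h, 138 against 28 for BRD+CHIR against JNJ+CHIR at 24 h, and 550 against 302 for the change of the Activin effect. Without 1 library the number of genes called fell to as few as 209 of 444 for CHIR against none at 6 h, 65 of 227 and 203 of 444 for AA+CHIR against CHIR at 6 h and 24 h, 899 of 1881 for BRD at 24 h against 6 h, and 1563 of 2893, 1365 of 2507 and 1306 of 2631 for BRD, JNJ and BRD+LoAA against AA at 72 h. The replicate numbers do not pair the libraries (correlation of deviations -0.09 to 0.08 at 6 h, -0.03 to 0.04 at 24 h, -0.24 to 0.26 at 72 h); beside FOXD3 at 72 h the replicate block lost PRDM14 for AA+CHIR at 24 h against 6 h, leaving 6 of 7 calls. Against BRD alone at 6 h in place of untreated cells, 4 members and not 6 were under 50% with AA+CHIR at 24 h. Where a cause of a change with the setting is not given by fewer libraries or genes, the cause was not tested. FOXD3 has 0 to 75 counts per library at 24 h with CHIR and 0 to 19 at 72 h, DPPA2 has 3 to 13 at 72 h, and in the single cells UTF1 has 17 UMIs in all, which limits the statements on them.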
